A study of Rattus norvegicus with 40 samples.

Results

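Angptl4 and 9 genes of lipid droplet fuel use (Plin2, Pnpla2, Pdk4, Cpt1a, Acsl3, Acsl4, Acsl6, Lpl and Ppard) were followed in the cerebral cortex of rats given hypoxic preconditioning, a spell of low oxygen meant to prepare tissue for later injury, or a sham treatment in normal oxygen. The 10 genes were taken by name, with earlier results of these data known, so they are not a choice made blind to the outcome. On the array, 15 of the 31042 probe sets carried 1 of them as their single annotated gene. Of these 15, 12 passed a filter on dim signal (a mean intensity of at least 31.9 over the arrays, the 40th percentile), among 18625 probe sets that did so. These 12 stand for 9 genes of the 10304 named genes tested, because both probe sets of Pdk4 and 1 of the 2 of Ppard were too dim. Where a gene had more than 1 probe set past the filter, the one with the highest mean stood for it.

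Total RNA from the cortex was hybridised to 40 Affymetrix 1-colour arrays, 20 per group. The arrays of each group are numbered 1 to 20 and listed in 4 runs of 5, numbers 1-5, 6-10, 11-15 and 16-20, so that each run has 5 preconditioned and 5 sham arrays. What the runs are is not given in the labels, and no time or other condition was assigned to them. Neither group's strain, age or genotype is stated in the labels, and neither is the oxygen level or the length of the exposure. The labels do not say whether each array is a separate animal, so the p-values measure the spread between these arrays, which may be technical in part. The tissue is bulk cortex, in which fewer cells of a type and less RNA per cell cannot be told apart.

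Fatty acids reach a cell largely from triglyceride-rich lipoproteins, which lipoprotein lipase (Lpl) cuts at the vessel wall and which Angptl4, a secreted protein, protects by inactivating that lipase. Inside the cell, acyl-CoA synthetases (the Acsl enzymes) activate fatty acids, Plin2 coats the droplets in which they are stored as triglyceride, and Pnpla2 (adipose triglyceride lipase) makes the first cut that releases them. Cpt1a admits them to mitochondria for oxidation, Pdk4 holds back pyruvate dehydrogenase and so spares glucose, and Ppard is a nuclear receptor that fatty acids activate. Angptl4 is a well known target of the PPAR receptors and of hypoxia-inducible factor, HIF, the transcription factor that low oxygen stabilises. The brain runs mainly on glucose, and its fatty acid oxidation is known mostly from astrocytes.

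Because Angptl4 is the member that differed in the most comparisons, the 250 bases before its start in the RefSeq table of build GRCr8 are shown, from chr7:15258682-15258931 on the minus strand, with the core of the HIF binding site in capitals.

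Angptl4: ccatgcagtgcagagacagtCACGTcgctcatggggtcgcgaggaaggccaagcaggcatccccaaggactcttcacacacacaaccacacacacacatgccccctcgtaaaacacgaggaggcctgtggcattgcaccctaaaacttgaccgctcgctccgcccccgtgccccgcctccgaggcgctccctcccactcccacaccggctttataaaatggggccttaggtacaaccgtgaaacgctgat

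The core was searched as ACGTG or GCGTG on both strands, and it lay on the strand opposite to the gene, 230 to 226 bases before the start. RefSeq places the gene Angptl4 at chr7:15252450-15259971, so this window lies within the annotated span of the gene. Vldlr and Pdk1, from the lists of related genes described further on, were higher after preconditioning in the same runs of numbers as Angptl4, and the 24 or 25 bases around the cores in their windows are shown for comparison, both on the plus strand, from chr1:234240662-234240685, chr3:77113373-77113397 and chr3:77113450-77113474.

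Vldlr: gaggagtagaGCGTGcaagttgca

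Pdk1, first core: gctcacatggGCGTGtcttcagtaa

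Pdk1, second core: tcctgcggggGCGTGgctccagcga

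Promoter entries were found for 8 of the 10 members, and 5 of those 8 held at least 1 core: Angptl4, Plin2, Cpt1a, Acsl3 and Acsl4. Of all 33469 promoter windows of this length, 36.7% held one. Vldlr and Pdk1 were picked for their rise, not at random. Among other genes called higher in a run, the window of Pnpla2 held 0 cores. That of the list gene Mgll held 4, counted on both strands. Plin2 has 2 entries, and the core in the first of them is a palindrome that counts on both strands. The repeat AGGTCANAGGTCA, a strict form of the PPAR binding site, was found in 0 of the 8 members and in 0.0508% of all windows. A match of these letters is a description of the sequence and does not show binding.

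The arrays had been brought to one scale before deposit, with 2%-trimmed means of 150.04 to 150.06. Their median log2 intensity ran from 5.53 to 5.82, and preconditioned arrays 5 and 6 stood apart with low medians. No pair of arrays was identical (correlations of 0.9624 to 0.9853). As a check of the labelled tissue, 10 of 10 neuronal and 10 of 10 astrocyte markers passed the filter, and 0 of 5 adipocyte markers did. With limma and a Benjamini-Hochberg adjusted p under 0.05 as the threshold, 2.39% of all probe sets were called between preconditioned and sham in numbers 1-5, 2.22% in 6-10, 0.0698% in 11-15 and 0% in 16-20. The 0 calls in numbers 16-20 compare with 952 of 18625 probe sets at an unadjusted p under 0.05. That count is near what this threshold gives when no probe set differs.

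Angptl4 was higher in the preconditioned cortex, by 1.56-fold in numbers 1-5 and by 1.93-fold in numbers 6-10, and its sham level did not pass the test for a difference between runs. In numbers 1-5 its intensity was 181, 183, 220, 225 and 200 on the preconditioned arrays and 121, 115, 122, 137 and 156 on the sham arrays. Every preconditioned array lay above every sham array of that run. In numbers 6-10 it was 305, 248, 202, 230 and 312 after preconditioning and 125, 142, 120, 116 and 167 in sham. The gap between the groups was wider here, from a lowest preconditioned value of 202 to a highest sham value of 167. In numbers 11-15 the intensities were 178, 157, 153, 155 and 158 against 151, 111, 91.2, 110 and 146. These groups again did not overlap, but sham arrays 11 and 15 came close to the preconditioned arrays. In numbers 16-20 they were 150, 149, 110, 113 and 134 against 129, 101, 118, 113 and 127, and the groups overlapped.

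**Figure D1:**
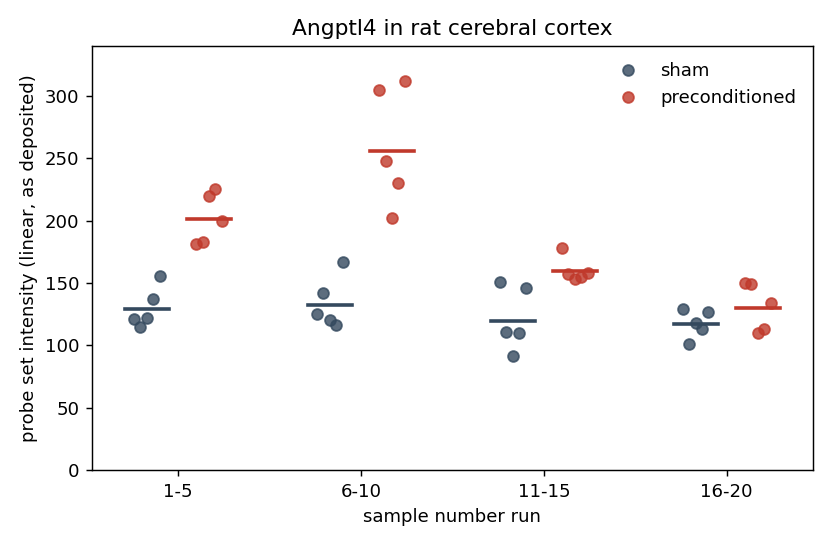
Angptl4 probe set intensity (linear, as deposited) on each of the 40 arrays, by run of sample numbers, with sham arrays in blue, preconditioned arrays in red and a bar at each group's geometric mean. The preconditioned arrays lie above the sham arrays in numbers 1-5, 6-10 and 11-15, most widely in 6-10, where the means are 256 and 133.

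On the log2 scale the difference, preconditioned minus sham, was 0.64 ± 0.13 (SE, 5 arrays per group; adjusted p = 0.0018) in numbers 1-5. It was 0.95 ± 0.13 in numbers 6-10 (adjusted p = 5.3e-06). In numbers 11-15 it was 0.42 ± 0.13, which did not pass (adjusted p = 0.237), with a 95% confidence interval of 0.16 to 0.67. The difference of 0.15 ± 0.13 in numbers 16-20 did not pass either (adjusted p = 0.954, interval -0.10 to 0.40). Averaged over the 4 runs it was 0.54 ± 0.06 (adjusted p = 2.3e-07), where 3.99% of all probe sets were called. The calls in numbers 1-5 and 6-10 and of the average were kept under each alternative run and without any single array, and without preconditioned arrays 5 and 6 the 2 differences were 0.64 and 0.88. Angptl4 had no second probe set with which these calls could be compared.

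Whether the difference itself varied between runs was tested as an interaction, which called 0.762% of all probe sets. Angptl4 missed that threshold (adjusted p = 0.0597, n = 40 arrays). Among the alternatives it passed, for example, with a pseudocount of 32 in place of the floor (0.0375), and without sham array 5, 10, 13 or 17 or preconditioned array 8 or 16, each left out alone (0.0217 to 0.0478). It did not pass without preconditioned arrays 5 and 6 (0.107).

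The mean preconditioned level fell in the order 6-10 (8.00 ± 0.27, SD of log2 intensity, 5 arrays), 1-5 (7.65 ± 0.15), 11-15 (7.32 ± 0.09) and 16-20 (7.02 ± 0.21). The arrays of the first 2 overlapped (202 to 312 and 181 to 225), while those of 1-5, 11-15 (153 to 178) and 16-20 (110 to 150) did not, and these differences were not tested. The sham means were 7.05 ± 0.22, 7.01 ± 0.18, 6.90 ± 0.31 and 6.87 ± 0.15 in the same order of runs. Sham neighbours in that order differed by less than their spread, and the test over the 4 sham means gave an adjusted p of 0.616.

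Of the 9 tested members, 1 was called in numbers 1-5 (Angptl4) and 2 in 6-10 (Angptl4 and Pnpla2), both times higher, and 0 in 11-15 and 16-20. Of all probe sets, 2.39%, 2.22%, 0.0698% and 0% were called in the 4 runs. The median differences of the 9 members, -0.03, 0.03, 0.02 and 0.01 in the 4 runs, stand beside medians of -0.03, -0.02, 0.00 and 0.00 over all probe sets. The preconditioned and sham arrays did not overlap for 1, 2, 3 and 0 of the 9 members in the 4 runs, against 4.28%, 3.66%, 2.21% and 1.14% of all probe sets.

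**Figure D2:**
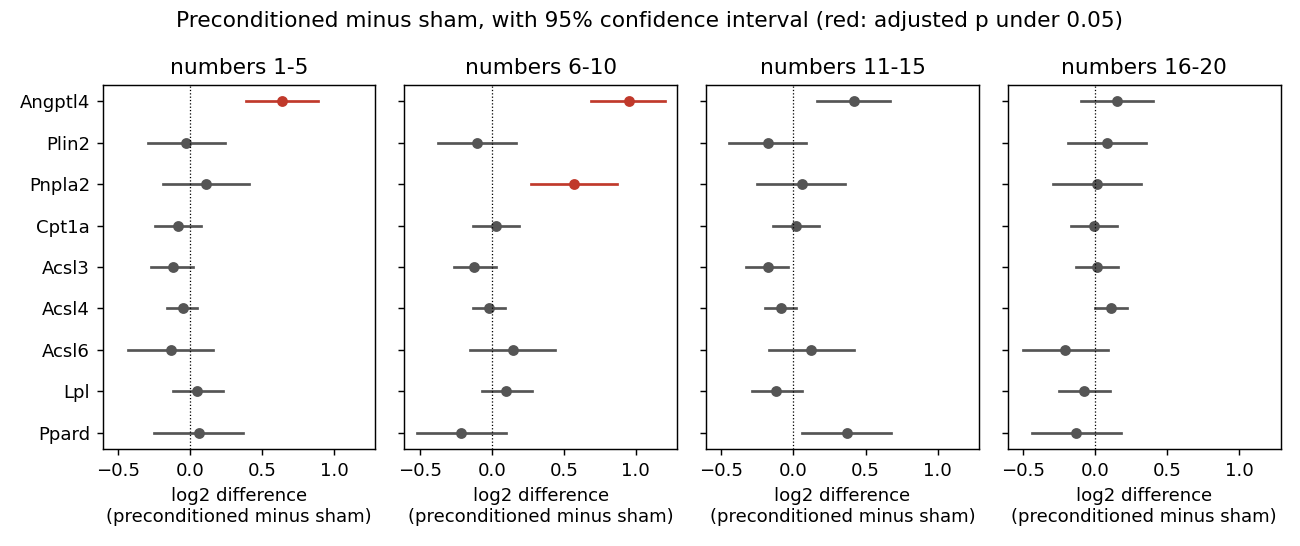
Log2 difference, preconditioned minus sham, of the 9 tested members in each run of sample numbers, with 95% confidence intervals and calls at an adjusted p under 0.05 in red. Angptl4 is called in numbers 1-5 (0.64) and 6-10 (0.95) and Pnpla2 in 6-10 (0.57), while the intervals of most others span 0.

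Lpl, the lipase that Angptl4 inactivates, was not called in any run. Its intensity ran from 446 to 600 over both groups of numbers 6-10, with medians of 531 after preconditioning and 494 in sham. The log2 differences were 0.05, 0.10, -0.12 and -0.08 in the 4 runs, each ± 0.09, and their 95% intervals reached from -0.29 to 0.28, which leaves room for changes of that size. The Lpl arrays of the 2 groups overlapped in all 4 runs.

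Pnpla2, the triglyceride lipase of lipid droplets, was higher after preconditioning in numbers 6-10, by 1.48-fold. There its intensity was 72.2, 78.7, 87.9, 85.0 and 80.8 on the preconditioned arrays and 45.6, 61.1, 60.2, 70.3 and 40.9 on the sham arrays. The groups did not overlap, though preconditioned array 6 and sham array 9 lay close together. The log2 difference was 0.57 ± 0.15 (adjusted p = 0.031), and without preconditioned arrays 5 and 6 it was 0.61 (adjusted p = 0.0401). The call was lost when the 10 arrays of the run were fitted alone (0.124) and without preconditioned array 8, 9 or 10 or sham array 6 or 10, each left out alone (0.0528 to 0.0994). In the other 3 runs the differences were 0.11, 0.06 and 0.01, and the test of a difference between runs did not pass (adjusted p = 0.375).

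In sham cortex Pnpla2 had a log2 mean of 5.77 ± 0.32 in numbers 6-10, below the 6.03 ± 0.23, 6.05 ± 0.13 and 5.91 ± 0.36 of runs 1-5, 11-15 and 16-20. These sham means overlapped within their spread (adjusted p = 0.423). Across the 40 arrays the correlation of Pnpla2 with Angptl4 was 0.35, and it was -0.25 once the mean of each group and run had been taken out.

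Plin2, the droplet coat protein, was not called in any run, and its differences were -0.03, -0.10, -0.18 and 0.08 (each ± 0.13). In numbers 6-10 its intensity was 110, 212, 188, 184 and 207 on the preconditioned arrays and 186, 182, 188, 205 and 182 on the sham arrays. Preconditioned array 6, 1 of the 2 arrays that stood apart, was far below the rest. A second Plin2 probe set gave -0.15, -0.03, 0.04 and 0.06. Across the 4 runs the 95% intervals of the first reached from -0.45 to 0.35.

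**Figure D3:**
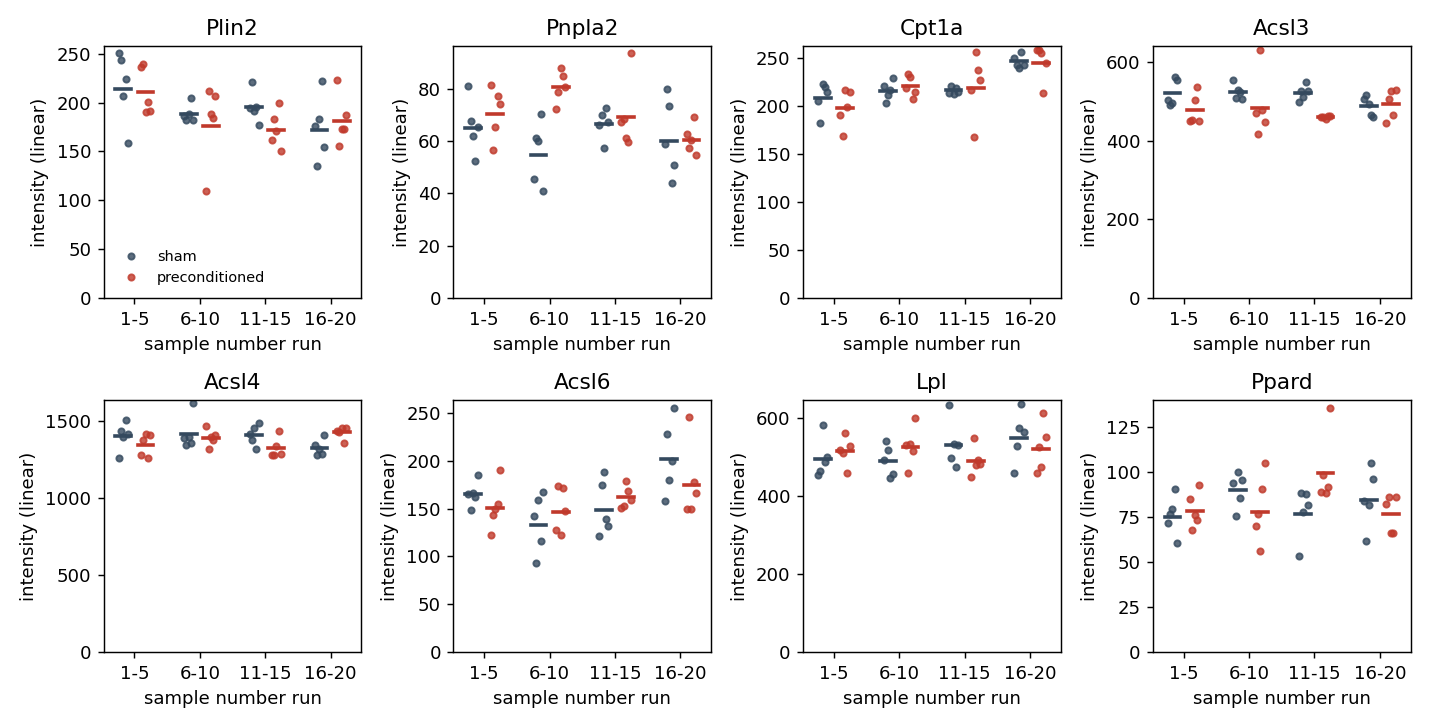
Intensity (linear, as deposited) of the other 8 tested members on each array, by run of sample numbers, with sham in blue, preconditioned in red and a bar at the geometric mean. Pnpla2 in numbers 6-10 separates into 40.9 to 70.3 in sham and 72.2 to 87.9 after preconditioning, and the Acsl3 arrays of numbers 11-15 separate the other way.

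Among the synthetases, Acsl3, which acts at the endoplasmic reticulum and on growing droplets, was lower on all 5 preconditioned arrays than on the 5 sham arrays of numbers 11-15. The intensities there were 460, 461, 456, 462 and 463 against 498, 525, 512, 550 and 526. The preconditioned values were close together and the sham values spread more widely. The difference of -0.18 ± 0.07 did not pass the test (adjusted p = 0.376). Its average over the 4 runs was -0.10 ± 0.04 (adjusted p = 0.089). Without preconditioned array 8, at 630 the highest Acsl3 value of all 40, the average was -0.13 (adjusted p = 0.00772) and the difference in numbers 6-10 moved from -0.12 to -0.21 (adjusted p = 0.0413).

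Acsl4, which prefers arachidonic acid, gave differences of -0.05, -0.02, -0.09 and 0.11 (each ± 0.05), none of them called. In numbers 16-20, 4 of 5 preconditioned arrays (1430 to 1460) lay above all 5 sham arrays (1280 to 1410), and the fifth was at 1360. Acsl6, a synthetase abundant in brain, gave -0.13, 0.15, 0.12 and -0.21 (each ± 0.15), also without a call. The dimmer second Acsl6 probe set had the opposite sign in the last 3 of the 4 runs, at -0.06, -0.13, -0.34 and 0.46 (each ± 0.19), and was not called either. On both probe sets the intensities of the 2 groups overlapped in all 4 runs.

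Cpt1a, the gate to mitochondrial oxidation, gave differences of -0.08, 0.03, 0.02 and -0.01 (each ± 0.08) and intervals from -0.24 to 0.19, none called. Its second probe set was at -0.30 ± 0.11 in numbers 1-5, where 86.6 to 101 after preconditioning stood against 100 to 155 in sham, and did not pass (adjusted p = 0.129). Pdk4 was too dim for the main test. Its 2 probe sets had mean intensities of 27.8 and 26.4, and with no filter on dim signal their differences ranged from -0.33 to 0.43 with adjusted p-values of 0.684 or more. In numbers 11-15, where Pdk4 differed by 0.43 on one probe set and 0.24 on the other, the first had sham array 11 at 15.5 and preconditioned array 12 at 15.6, both below the floor of 16.

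Ppard, the nuclear receptor, did not overlap between groups in numbers 11-15, with 89.2, 98.4, 88.6, 91.9 and 136 after preconditioning and 53.7, 88.6, 78, 88.1 and 81.6 in sham. The nearest arrays of the groups, preconditioned 13 and sham 12, both read 88.6 when rounded. The difference of 0.37 ± 0.15 did not pass (adjusted p = 0.398). In the other runs it was 0.06, -0.21 and -0.13. The second probe set of Ppard was at the floor of 16 on 39 of 40 arrays.

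The sham arrays also show how the members stood without preconditioning in the 4 runs. The test over the 4 sham means called 13.7% of all probe sets and, of the 9 members, Acsl6 (adjusted p = 0.0202). Its sham intensities were 165, 148, 166, 162 and 185 in numbers 1-5, then 142, 93.4, 159, 116 and 167 in 6-10. In numbers 11-15 they were 121, 175, 188, 139 and 132, and in 16-20 they were 158, 228, 180, 200 and 255. The log2 means of 7.36 ± 0.11, 7.05 ± 0.35, 7.21 ± 0.27 and 7.65 ± 0.27 place 16-20 highest and 6-10 lowest. Adjacent runs did not differ by the test (adjusted p = 0.296, 0.871 and 0.12).

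The Acsl6 call was lost with no filter (0.0524), without sham array 17 (0.0658) or 20 (0.0842), and on the dimmer Acsl6 probe set (0.451), whose mean intensity was 39.5. Between the outer runs, sham 16-20 minus 1-5, 14.8% of all probe sets were called. Here Acsl6 differed by 0.29 ± 0.15 and was not called (adjusted p = 0.183).

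Cpt1a was the member called in that comparison of outer runs, higher in 16-20 by 0.24 ± 0.08 (1.18-fold, adjusted p = 0.0341). Its sham intensities were 205, 182, 223, 220 and 215 in numbers 1-5 and 250, 243, 240, 256 and 243 in 16-20, and these did not overlap. The 2 runs between them, at 203 to 229 and 212 to 221, resembled the first. On the preconditioned arrays of 16-20 the level was 258, 258, 255, 213 and 245, near that of their sham. The call was lost without sham array 1, 2, 16, 17, 19 or 20, each left out alone (0.0508 to 0.13), and the second probe set of Cpt1a gave 0.30 ± 0.11 (adjusted p = 0.0523).

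Plin2 was lower in sham 16-20 than in sham 1-5, by -0.32 ± 0.13, without passing (adjusted p = 0.0983). Its intensities were 251, 244, 207, 224 and 159 in sham 1-5 and 176, 135, 183, 222 and 155 in sham 16-20, which overlap. The second Plin2 probe set gave -0.40 ± 0.12 and passed (adjusted p = 0.0171). The first passed without preconditioned arrays 5 and 6 (0.0393), without sham array 5 (0.0248) and without sham array 19 (0.0423).

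**Figure D4:**
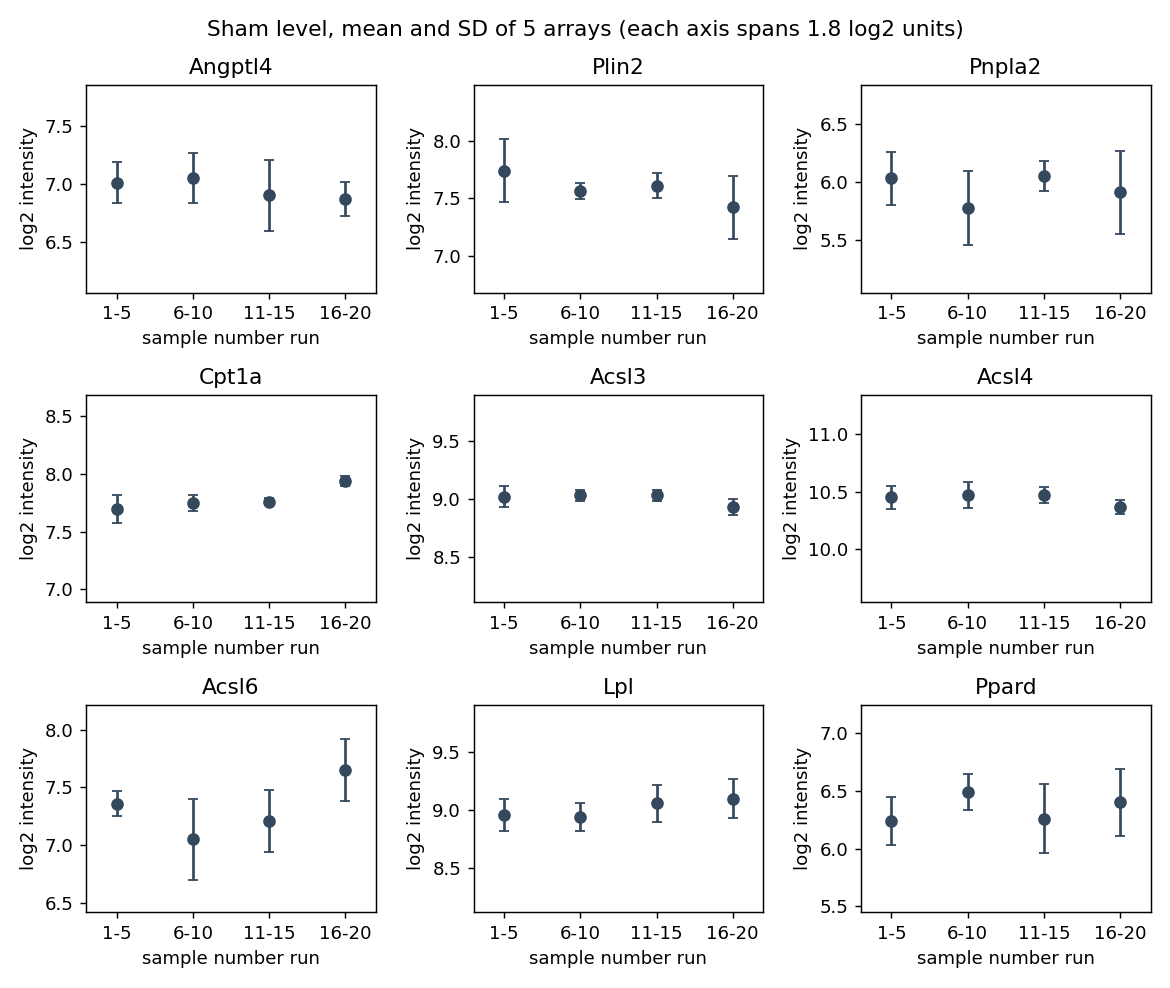
Sham level of the 9 tested members in the 4 runs of sample numbers, as the mean log2 intensity with the SD of 5 arrays, each axis spanning the same log2 width. Acsl6 runs from 7.05 in 6-10 to 7.65 in 16-20 and Cpt1a from 7.70 in 1-5 to 7.94 in 16-20, while the sham means of Angptl4 stay between 6.87 and 7.05.

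Markers of several cell types moved with the same sham comparison of outer runs. Higher in 16-20 were 7 of 10 neuronal, 5 of 10 astrocyte, 4 of 7 oligodendrocyte and 4 of 6 microglial markers. Of all probe sets 14.8% were called, 1293 higher and 1467 lower. Of 11 endothelial and 3 blood markers 0 were called. Of 6 pericyte and smooth muscle markers 1 was higher (Myh11), and of 7 markers of meninges and choroid plexus 1 was lower (Col1a2). The summed neuronal intensity ran from 13500 to 15800 in sham 1-5 and from 15600 to 19100 in sham 16-20, and the astrocyte sum from 7800 to 8500 and from 9160 to 11300. The oligodendrocyte sum ran from 2210 to 2420 and from 2500 to 3910, and the microglial sum from 411 to 549 and from 548 to 803. Their part in the Cpt1a, Acsl6 and Plin2 differences was not tested.

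Beside the Angptl4 differences, 4 of 11 endothelial markers were called higher after preconditioning in numbers 1-5 and 0 lower. The list median there was 0.09, and Abcb1a (-0.49), Tek (-0.32), Slco1a4 (-0.22) and Tie1 (-0.20) lay below 0 without a call. Of all probe sets, 2.39% were called in numbers 1-5, 2.22% in 6-10 and 0.0698% in 11-15, with median differences of -0.03, -0.02 and 0.00. In 6-10, 2 endothelial markers were called higher and 2 lower, beside a list median of 0.07. The vessel genes Kdr and Vwf were higher in both runs, by 0.40 and 0.49 and then by 0.53 and 0.54. Flt1 (1.16) and Pecam1 (0.53) were called higher in numbers 1-5, and stood at 0.80 and 0.33 in 6-10 without a call. Tek and Abcb1a were lower in 6-10, by -0.51 and -0.98. The summed endothelial intensity ran from 1560 to 1930 against 1440 to 1710 in sham in numbers 1-5, and from 1560 to 1890 against 1510 to 1680 in 6-10. Vwf was also higher in 11-15 (0.61). Of 10 astrocyte markers 0 were called in numbers 1-5. In 6-10, 2 were called, Gfap (1.02) and Aldoc (0.42), both higher, while the median difference of the 10 was -0.10, with Slc1a2 at -0.60, Gjb6 at -0.26 and Aqp4 at -0.16, none of these called. In 11-15 Gfap alone was called (1.07), beside a median of -0.02. The astrocyte sum of numbers 6-10 ran from 9650 to 14500 after preconditioning and from 8460 to 11300 in sham. Of 7 oligodendrocyte-lineage markers 1 was called in numbers 1-5 and in 6-10, the precursor marker Pdgfra (0.34 and 0.45), beside list medians of 0.09 and -0.05. Their sum ran from 2280 to 2770 against 2210 to 2420 in sham in numbers 1-5, and from 2540 to 3590 against 2380 to 2960 in 6-10. Of 6 microglial and macrophage markers 1 was called in 6-10, the macrophage marker Mrc1 (0.74), beside a median of -0.01 and a sum of 551 to 847 against 544 to 687. The part of these cell types in the Angptl4 and Pnpla2 differences was not tested. Adipocyte markers gave sums of 80 to 93.5 on the 40 arrays, where 80 is 5 genes at the floor, and Cidec and Fabp4 were at the floor on 40 of 40.

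Other genes of these pathways were read from 7 lists of 126 genes, of which 87 were tested. After preconditioning, 4 of the 87 were called in numbers 1-5 (3 higher and 1 lower, 4.6%), 2 in 6-10 (both higher, 2.3%), 0 in 11-15 and 0 in 16-20. These shares stand beside the 2.39%, 2.22%, 0.0698% and 0% of all probe sets. The average over runs called 3 of 87, all higher (3.45%, beside 3.99% of all probe sets). The interaction called 2 (2.3%, beside 0.762%).

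Of the list of uptake and lipase handling 1 of 12 tested genes was called in numbers 1-5 and the same count in 6-10, each time Vldlr, the very low density lipoprotein receptor, which binds lipoproteins that Lpl acts on. Its intensity ran from 355 to 406 after preconditioning and from 239 to 278 in sham in numbers 1-5, and from 304 to 330 against 226 to 267 in 6-10. Both pairs of groups were apart. The differences were 0.55 ± 0.06 (adjusted p = 1.8e-07) and 0.38 ± 0.06 (adjusted p = 3.3e-04), then -0.03 and 0.02, and the interaction passed (adjusted p = 6.4e-05). The 3 other Vldlr probe sets past the filter gave 0.33, 0.28 and 0.14 in numbers 1-5, of which the first 2 were called, and 0.47, 0.20 and 0.12 in 6-10, of which the first was called, and their interactions did not pass.

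Of 11 genes of pyruvate dehydrogenase and its control, 1 was called in each of the same runs, Pdk1, a kinase that like Pdk4 shuts pyruvate dehydrogenase off. Pdk1 ran from 184 to 244 after preconditioning and from 133 to 175 in sham in numbers 1-5, and from 189 to 248 against 147 to 186 in 6-10. These groups did not overlap. The differences were 0.48 ± 0.09 (adjusted p = 0.00171) and 0.39 ± 0.09 (adjusted p = 0.0167), and the second Pdk1 probe set gave 0.47 and 0.36. The call in 6-10 was lost when that run was fitted alone (0.0976) and without sham array 7 (0.0574). In numbers 11-15 and 16-20 Pdk1 was at 0.08 and -0.01. The interaction gave an adjusted p of 0.0904 for it, of 0.0175 on its second probe set, of 0.0144 with the array medians set equal and of 0.0289 without preconditioned array 12. Pdk2, another kinase of this family, had differences of -0.30, 0.27, 0.28 and -0.14, none called, and an interaction that passed (adjusted p = 0.0342). That call was lost without preconditioned array 3, 4, 8, 9, 11, 15 or 19 or sham array 4, 5, 7, 9, 11, 12, 15 or 17, each left out alone (0.05 to 0.0687).

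Of 16 genes of droplets and triglyceride 1 was called in numbers 1-5, Mgll, the lipase of the last step of triglyceride breakdown, at 0.60 ± 0.17 (adjusted p = 0.0484). The call rests on 1 probe set, since 3 others gave 0.32, 0.22 and 0.13 without a call, and it was lost without preconditioned array 1, 3, 4 or 5 or sham array 1, 2, 3 or 5, each left out alone (0.0553 to 0.148). Of 24 genes of fatty acid oxidation 1 was called, Etfdh, which passes electrons from that oxidation to the respiratory chain. It was lower in numbers 1-5, at -0.36 ± 0.10 (adjusted p = 0.0476), and at -0.22 (adjusted p = 0.235) without preconditioned array 5. Its call was also lost without preconditioned array 1 or any 1 of the 5 sham arrays (0.0624 to 0.0993). The same happened with quantile normalization (0.0894), with the array medians set equal (0.128), with no filter (0.0672) and with the run fitted alone (0.226). Of the 11 further synthetases and thioesterases, the 7 PPAR receptors and partners and the 6 genes of ketone bodies and uncoupling, 0 were called in any run.

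The comparison of sham 16-20 with 1-5 called 13 of the 87 list genes (14.9%, beside 14.8% of all probe sets), 10 higher and 3 lower. Higher were Acadl (0.41 ± 0.08) and Acaa2 (0.60 ± 0.17), both enzymes of beta-oxidation, and Pdk2 (0.51 ± 0.10) and Mpc2, a subunit of the mitochondrial pyruvate carrier (0.26 ± 0.07). Agpat1, which builds phosphatidic acid on the way to triglyceride, was higher by 0.37 ± 0.09, Mgll by 0.51 ± 0.17, the receptor Lrp1 by 0.26 ± 0.08 and Dbi, the acyl-CoA binding protein, by 0.26 ± 0.08. Lower were Lpin2, a phosphatidate phosphatase (-0.37 ± 0.11), Acaca, which makes malonyl-CoA (-0.28 ± 0.07), and Acbd3 (-0.33 ± 0.08). For Acbd3 the 2 other probe sets gave 0.14 and 0.00, and for Acaca the other gave -0.17 without a call. Leaving out 1 sham array ended the call of Lrp1 (array 2, 4, 17, 18 or 20, adjusted p up to 0.114), Mgll (2, 3, 5, 17, 18, 19 or 20, up to 0.136), Lpin2 (2, 0.0629), Dbi (20, 0.0523) and Acaa2 (3, 0.0603).

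Over the 40 arrays, the 5 genes whose level was most like that of Angptl4 were Cav1, the coat protein of caveolae (Pearson r = 0.81), Pdgfra, a receptor of oligodendrocyte precursors (0.81), Myl12a, a myosin light chain (0.81), Slc2a1, which carries glucose across brain vessels (0.80), and Plod2, a collagen lysyl hydroxylase (0.79). For Plin2 they were Lats1 (0.74), Brd10 (0.69), Jade1, Abl2 and Khdrbs2 (each 0.68). These correlations are descriptions, since the arrays share their group and run. Among the members themselves, Pnpla2 and Acsl4 were farthest from 0, at -0.49 over the 40 arrays and -0.62 within groups, and no member reached the likeness to Angptl4 of the 5 genes named.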

How the data were processed

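The deposited table holds a linear intensity per probe set and array. Its scaling software is not given in the sources used here, and its trimmed means show a common scale set by the authors before deposit. Control probe sets (57) were left out. Intensities below 16 (25.7% of values, 0.149% past the filter) were set to 16 and log2 was taken. Probe sets with a mean at or above the 40th percentile (18625) were fitted in limma 3.58.1 under R 4.3.3 with 8 group means, eBayes with a mean trend and Benjamini-Hochberg adjustment over all of them, two-sided, after tests on simulated data. Genes came from the platform annotation. The text names all 10 members and, per pathway list and comparison, up to 2 genes called higher and 2 lower. The members and lists were chosen with earlier results of these data known. Alternatives changed the floor, normalization, filter, mean trend, arrays fitted, probe set and block. The number of arrays limits the precision. Promoter sequences are RefSeq's, build GRCr8.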

Additional observations from a re-analysis of the deposited data

Results flagged for a closer look

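Groups of 5 arrays were read for the 9 probe sets that stand for a tested member and the 3 dim ones, 96 groups in all. In 11 of them 1 array lay far from the other 4, measured by its gap to the nearest over the range of the group. Chance gives about 1 in 20 groups, but the dim Ppard probe set cannot be set against that share. It was at the floor of 16 on every array except preconditioned array 6. Its groups without that array had no range and could not be flagged. In the group with that array the other 4 were equal at the floor, so its flag, counted among the 11, was fixed in advance. Preconditioned array 6 was low for Plin2 (110, the others 184 to 212) and high for the dim Ppard probe set (21.8, the others 1.85 to 10.5, a range below or near the floor). Preconditioned array 19 was low for Cpt1a (213, the others 245 to 258) and Acsl4 (1360, the others 1430 to 1460). Angptl4 was high on preconditioned array 11 (178, the others 153 to 158). Plin2 was high on sham array 9 (205, the others 182 to 188), and Acsl4 on sham array 10 (1620, the others 1350 to 1400). Ppard was high on preconditioned array 15 (136, the others 88.6 to 98.4) and low on sham array 11 (53.7, the others 78 to 88.6). Pdk4 was low on preconditioned array 12 (15.6, the others 34.5 to 44.4) and on sham array 17 (14.9, the others 32.2 to 41.1). Array 6 is 1 of the 2 preconditioned arrays with low medians.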

How the results depend on the processing

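Of 2042 values of the members under an alternative, 2010 kept their direction and side of the threshold, 17 lost a call, 15 gained one and 0 changed sign while called; of 4834 values of list genes, 4661 were kept, 140 lost a call, 31 gained one and 2 changed sign, Mgll on another probe set (-0.05 averaged over runs) and Acbd3 on another (0.14, sham 16-20 minus 1-5). The causes were not tested. Counts of called probe sets that moved by over 1.5 times were, for numbers 11-15, 22 with quantile normalization and 22 with a filter at the 60th percentile, and 1 for 16-20 with no mean trend. Fitting the groups compared alone, with fewer arrays, gave 161, 96 and 3 in the first 3 runs. Without preconditioned arrays 5 and 6 the counts were 265 in 6-10 and 41 in 11-15. Leaving out 1 array gave 268 to 436 in 1-5 (lowest without preconditioned array 5), 217 to 584 in 6-10 (sham 8), 3 to 20 in 11-15 (preconditioned 12), 0 to 1 in 16-20, 589 to 955 for the average, 120 to 162 for the interaction, 1603 to 2772 for the 4 sham means (sham 20) and 1835 to 3034 for sham 16-20 minus 1-5 (sham 2). Setting the array medians equal changed the split of calls to 347 higher and 85 lower in 1-5 (230 and 215 as reported) and to 409 and 81 in 6-10 (204 and 209); quantile normalization gave 262 and 149 in 1-5, and fitting a run alone 123 and 38 in 1-5 and 66 and 30 in 6-10. Pnpla2 and Ppard fell below the 60th percentile and have no value there. Same-numbered arrays correlated by 0.03 to 0.39 in their deviations from group means, with 15 of 20 pairs over 0.1. In 19 of 20 pairs the closest sham array of the run was the one with the same number, so same-numbered arrays share some variation. The rule set for a pairing asked for every pair over 0.1, so the main fit has no block. The p-values of the main fit are computed with that shared variation still in the spread. With the replicate block there were 677 calls in 6-10 and 34 in 11-15, and the Angptl4 interaction passed (adjusted p = 0.0139). The block ended the calls of the Pdk2 interaction (0.0676) and of Etfdh in 1-5 (0.056).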
